A study of Mus musculus with 12 samples.

Results

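The receptor gene Kit and the transcription factor gene Gata2 were described through every peak that overlapped their surroundings in 11 lists of peaks from mouse embryos. The Kit window ran from 75850000 to 76065000 on chromosome 5 (215 kb, mm9) and held the gene, near 75971000 to 76053000, with 121 kb upstream of it. The Gata2 window ran from 88060000 to 88170000 on chromosome 6 (110 kb) and held the gene, near 88143900 to 88157000, with 83.9 kb upstream. The windows are stretches of sequence given by position, chosen with earlier results of these data known, and every peak in them counts as a member. Of 353805 peaks in all lists, 131 overlapped them, 69 at Kit and 62 at Gata2. Both genes read in the direction of rising coordinates, and offsets are given in kb from the gene starts above, which are rounded.

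All samples were C57BL/6 embryos of embryonic day 14.5. Whole fetal liver gave ChIP-seq libraries, in which chromatin carrying a histone mark is precipitated with an antibody and sequenced, for H3K4me1 (n = 3), H3K4me2 (n = 2), H3K4me3 (n = 2) and H3K27ac (n = 2), with 1 input library that has no peak list here. Proerythroblasts, the earliest recognisable red cell precursors, gave ATAC-seq libraries (n = 2), in which a transposase cuts accessible chromatin. The labels name no treatment or engineered allele, and they do not say how many embryos made up a library. For H3K4me2, H3K4me3 and H3K27ac, the antibody in the sample characteristics and that in the protocol text differ in supplier or catalogue number. Whole fetal liver holds several cell types, so fewer cells carrying a mark and less of the mark per cell cannot be told apart. No gene annotation of the mm9 build was at hand, so the tissue labels were not checked against marker genes.

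Kit is the receptor for stem cell factor, which blood stem cells, early red cell precursors and mast cells need to survive and divide. Gata2 is a zinc finger factor of blood stem cells and progenitors that binds GATA sequences. As red cell precursors mature, GATA1 replaces GATA2 at shared sites near both genes and both genes are switched off, a change known as the GATA switch. H3K4me3 marks promoters, H3K4me1 enhancers and promoter flanks, H3K4me2 both, and H3K27ac active promoters and enhancers.

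At both genes the acetylated chromatin lay upstream, at 1 distant site of Kit and 2 of Gata2, and not on the gene. H3K27ac peaks of both libraries covered the Kit distal enhancer and the Gata2 −77 kb enhancer, which were also accessible in both proerythroblast libraries and had no H3K4me3. The second Gata2 site, near −38 kb, had small H3K27ac peaks in both libraries and no ATAC peak. No H3K27ac peak of either library fell on either gene. The Kit start carried a wide H3K4me3 peak in both libraries and was accessible. The Gata2 start had no ATAC peak, and the accessible site nearest to it lay about 4 kb upstream, under a narrow H3K4me3 peak.

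**Figure D1:**
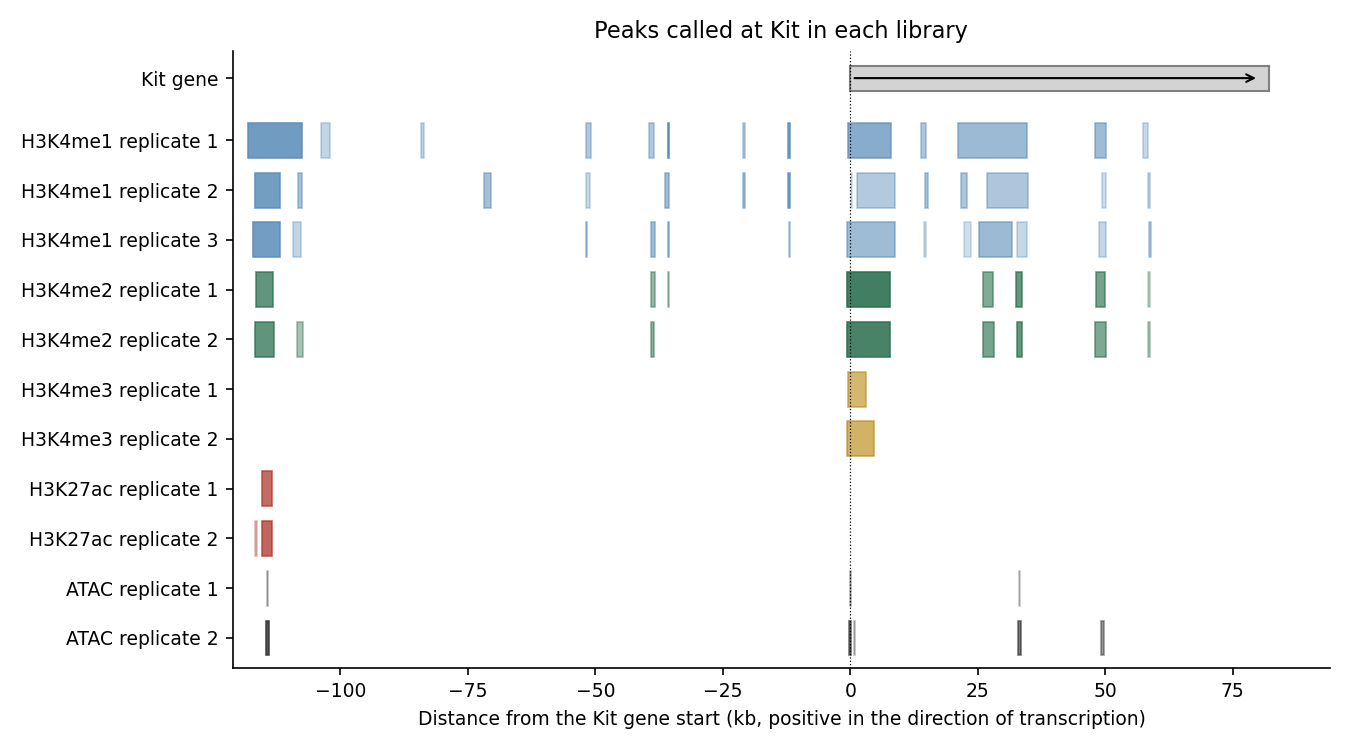
Peaks called at Kit in each of the 11 libraries, by distance from the gene start in kb. Each bar is a peak, darker where its fold enrichment ranks higher in its own list, and the grey bar is the gene. H3K27ac appears only at the far left, H3K4me3 only at the gene start, and no list has a peak in the last 35.133 kb of the window.

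The promoter sequences are shown because H3K4me marks lie over the gene starts of both genes without acetylation. They are the 250 bases before each start, from RefSeq on build GRCm38.p6, plus strand, and their coordinates are not those of the mm9 peaks. Capitals mark GC boxes (GGGCGG) and CCAAT boxes (CCAAT), searched on both strands. Kit lies at chr5:75574737-75574986, the first Gata2 start at chr6:88193641-88193890 and the second at chr6:88198414-88198663. The table holds a further Kit start 4 bases downstream.

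Kit: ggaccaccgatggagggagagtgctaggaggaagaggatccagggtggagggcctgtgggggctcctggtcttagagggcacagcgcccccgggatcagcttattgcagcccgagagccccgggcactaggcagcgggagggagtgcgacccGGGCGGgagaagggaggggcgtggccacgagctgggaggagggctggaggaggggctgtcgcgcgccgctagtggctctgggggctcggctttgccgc

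Gata2 first start: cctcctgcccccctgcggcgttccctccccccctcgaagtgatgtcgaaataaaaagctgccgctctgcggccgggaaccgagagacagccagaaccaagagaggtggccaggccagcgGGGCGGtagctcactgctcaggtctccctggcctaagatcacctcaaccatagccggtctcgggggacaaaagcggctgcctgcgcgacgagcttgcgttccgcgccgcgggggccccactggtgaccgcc

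Gata2 second start: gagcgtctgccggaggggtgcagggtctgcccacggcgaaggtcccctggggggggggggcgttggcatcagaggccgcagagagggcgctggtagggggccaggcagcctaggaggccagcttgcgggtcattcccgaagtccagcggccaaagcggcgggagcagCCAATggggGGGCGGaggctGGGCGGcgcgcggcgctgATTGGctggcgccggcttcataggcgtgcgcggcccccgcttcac

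All 3 stretches are rich in G and C, at 70.8%, 67.2% and 74.0% against a median of 52.4% over 32851 promoter stretches, and hold 17, 22 and 24 CpG pairs against a median of 6. Each holds at least 1 GC box, which 32.7% of all stretches do. The second Gata2 start holds 2 CCAAT boxes, found in 33.8% of all stretches, and the other stretches hold none. None of the 3 holds the GATA motif (GATA with A or T before it and A or G after it) on either strand, found in 26.5% of all stretches, or an E-box (CANNTG), found in 66.2%. The search covers these letters in these 250 bases only.

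The Kit distal enhancer is a published element bound by GATA factors far upstream of the gene. It was the site in the Kit window where peaks of H3K27ac, H3K4me1, H3K4me2 and ATAC overlapped. Its accessible site spanned 75856466 to 75856928, with summits at −114.31 kb in ATAC replicate 1 and −114.36 kb in replicate 2. The ATAC fold enrichment over the peak caller's background, the authors' own value for each peak, was 3.89 in replicate 1 and 8.96 in replicate 2. Those values stood at percentiles 10.4 and 78.1 of the libraries' own lists, which hold 18441 and 28980 peaks.

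H3K27ac over this site was called from −115.32 to −113.41 kb in replicate 1 and from −115.45 to −113.47 kb in replicate 2, with edges within 0.2 kb of each other. The fold enrichments were 3.16 and 3.09, at percentiles 66.7 and 69.9, and the −log10 q values (the caller's adjusted p on a log scale) were 4.80 and 5.24. Replicate 2 also had a small peak from −116.77 to −116.38 kb, at fold 2.31. H3K4me2 covered −116.54 to −113.24 kb and −116.74 to −113.02 kb, with folds of 4.81 and 4.11. H3K4me1 was wider, with folds of 3.38, 2.99 and 3.08 over 10.56, 4.90 and 5.29 kb, at percentiles 83.0, 79.9 and 80.9. In replicates 2 and 3 this was the H3K4me1 peak of highest fold in the Kit window. In replicate 1 it came second to a peak of 0.30 kb at −35.81 kb, with a fold of 3.74.

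The Kit start was the only place in the window with H3K4me3. The peak ran from −0.43 to 3.03 kb in replicate 1 (3.47 kb, fold 6.19, −log10 q 13.5) and from −0.63 to 4.73 kb in replicate 2 (5.36 kb, fold 6.68, −log10 q 18.6). By width these peaks stood at percentiles 90.4 and 96.7 of their lists, and by fold near the middle, at 44.6 and 50.9. The peaks were wide, with ordinary enrichment.

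H3K4me2 reached further into the gene than H3K4me3, and its edges differed little between libraries. It ran from −0.73 to 7.77 kb and from −0.74 to 7.78 kb, with folds of 6.87 and 5.24, and was both the widest H3K4me2 peak at Kit and the one of highest fold. H3K4me1 ended at 8.05, 8.71 and 8.70 kb in its 3 libraries. In replicates 1 and 3 it covered the start, while replicate 2 had a peak of 0.29 kb from 0.09 to 0.38 kb and resumed at 1.40 kb. An ATAC peak lay on the start in both libraries, with summits at 0.03 and −0.03 kb and folds of 3.87 and 6.37. Replicate 2 alone had another at 0.79 to 1.00 kb, with a fold of 3.51.

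No H3K27ac peak lay on the Kit H3K4me3 peak. Over the whole lists 71.8% of H3K4me3 peaks of replicate 1 and 67.6% of replicate 2 met an H3K27ac peak of either library, and among the 1343 and 556 peaks at least as wide as that at Kit the shares were 97.5% and 97.5%. Restricted further to peaks of no higher fold than that at Kit, they were 74.3% of 101 peaks and 66.7% of 36. Kit was among the few wide H3K4me3 peaks without acetylation, but less uncommon among wide peaks of like or lower enrichment. These groups of peaks were defined after the Kit values were seen. The nearest H3K27ac peak of either library upstream ended 113.41 kb from the Kit start, and the nearest downstream began 72.143 kb past the gene end.

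Within the Kit gene, 2 further sites were accessible. That at 76003971 to 76004472 was called in both libraries, with summits at 33.09 and 33.16 kb. Its folds were 3.18 and 6.28, and the former was at percentile 1.8 of its list. H3K4me2 lay over it with folds of 4.62 and 3.87, and H3K4me1 peaks of all 3 libraries covered it. A site at 76020245 to 76020696, near 49 kb, was called in ATAC replicate 2 alone (fold 4.82), again under H3K4me2 (folds 3.83 and 3.11) and H3K4me1 of all 3 libraries. Neither had H3K4me3 or H3K27ac.

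Away from these sites the Kit window held H3K4me1 and scattered H3K4me2. Merging the peaks of all lists gave 14 clusters in the whole window, of which 7 had a single mark and no ATAC peak. H3K4me2 of both libraries lay in 6 of them and H3K4me1 of all 3 in 9. The Gata2 window gave 13 clusters, with 5, 8 and 5 in the same order. Clusters were not counted over the whole series, so these numbers only describe the windows. A broad H3K4me1 stretch in the Kit gene ran from 21.15 to 34.66 kb as 1 peak in replicate 1 (13.51 kb, percentile 98.3 by width), and was split in the other libraries. H3K4me2 lay inside it from 25.97 to 27.98 kb and from 25.96 to 28.20 kb. Narrow H3K4me1 peaks near −12 kb were called in all 3 libraries, 0.46, 0.42 and 0.29 kb wide, with folds of 3.12, 2.80 and 2.37. The last 35.133 kb of the Kit window, from 58.87 kb on, which includes the 3′ end of the gene, had no peak in any list.

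**Figure D2:**
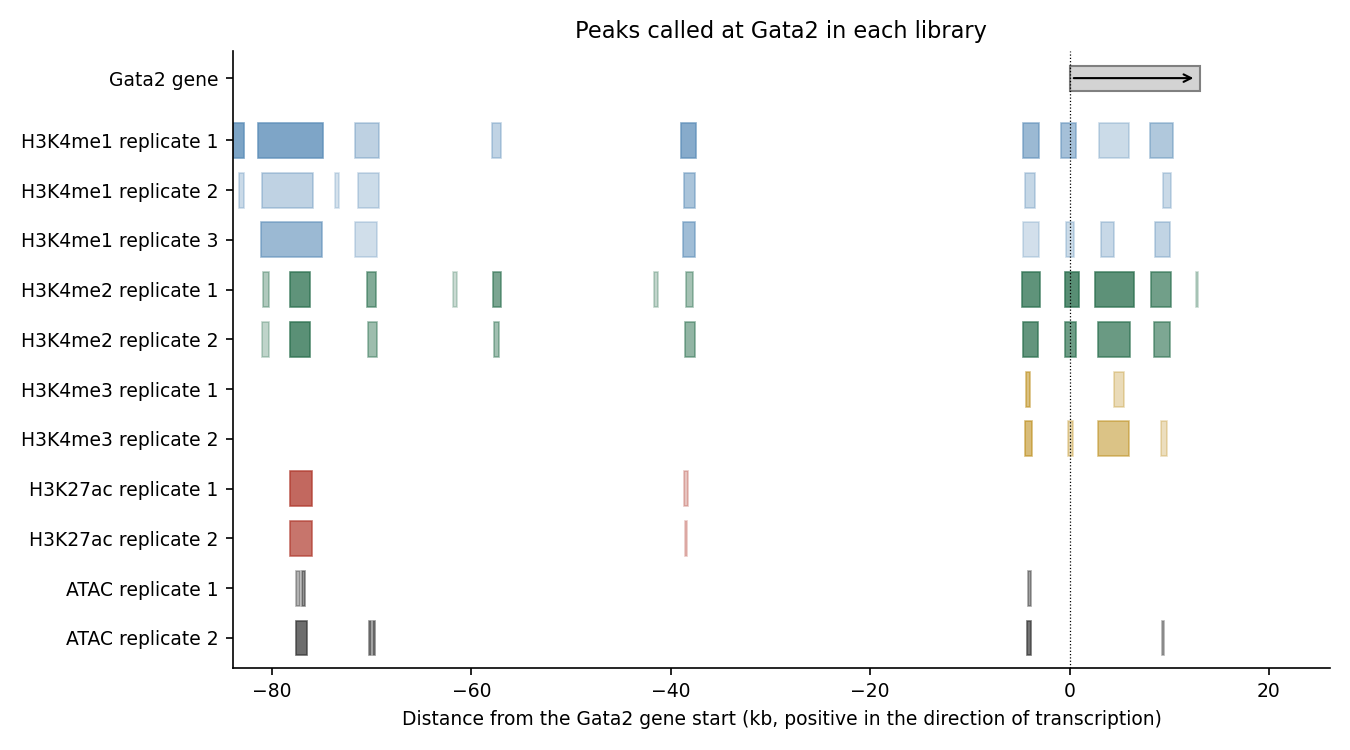
Peaks called at Gata2 in each of the 11 libraries, by distance from the gene start in kb. Each bar is a peak, darker where its fold enrichment ranks higher in its own list, and the grey bar is the gene. Acetylation and the widest ATAC peak share the site near −77 kb, and the gene itself carries H3K4me1, H3K4me2 and H3K4me3 without H3K27ac.

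The Gata2 −77 kb enhancer, a published element that drives Gata2 in progenitors, was the strongest acetylated site in its window. H3K27ac ran from −78.22 to −76.04 kb in replicate 1 and from −78.20 to −75.97 kb in replicate 2, with folds of 3.22 and 2.89 and −log10 q of 8.13 and 7.78. H3K4me2 covered nearly the same stretch, from −78.24 to −76.18 kb and from −78.20 to −76.20 kb, with folds of 5.00 and 4.40. H3K4me1 spread over 6.45, 5.11 and 6.05 kb, with folds of 3.04, 2.28 and 2.55. It was the widest H3K4me1 peak at Gata2 in each of the 3 libraries. By fold it led in replicate 3, while in replicate 1 a peak from −89.03 to −82.77 kb, which runs past the window's edge, stood slightly higher (3.07), and in replicate 2 the peak near −38 kb did (2.44).

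Accessible chromatin at the −77 kb enhancer spanned 88066311 to 88067447. ATAC replicate 2 had 1 peak of 1.14 kb there, at percentile 96.3 by width and fold 6.94. Replicate 1 had 2 peaks, from −77.56 to −77.16 kb and from −77.03 to −76.74 kb, with folds of 4.24 and 5.33. The summit of replicate 2, at −77.43 kb, lay in the stretch of the former. As at the Kit distal enhancer, all 3 H3K4me1, both H3K4me2 and both H3K27ac libraries had a peak over the accessible site and neither H3K4me3 library did.

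Between this enhancer and the gene were smaller sites. A pair of ATAC peaks at −70.32 to −70.08 kb and −69.89 to −69.65 kb, with folds of 5.15 and 5.26, was called in replicate 2 alone, under H3K4me2 (folds 3.40 and 2.64) and H3K4me1 of all 3 libraries. H3K4me2 was called near −58 kb in both libraries, with folds of 3.62 and 2.59, and H3K4me1 there in replicate 1 alone. Near −38 kb a second acetylated site was called in both H3K27ac libraries, only 0.43 and 0.23 kb wide, with folds of 2.35 and 2.10 at percentiles 6.5 and 2.7. H3K4me1 of all 3 libraries and H3K4me2 of both lay over it, with no ATAC peak. From −37.48 to −4.78 kb no list had a peak, a gap of 32.71 kb.

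The accessible site nearest to the Gata2 start carried H3K4me3. It spanned 88139594 to 88140031, with summits at −4.01 and −4.03 kb and ATAC folds of 4.71 and 6.52, and a published GATA switch site is named for its place at −3.9 kb. H3K4me3 over it was 0.47 kb wide in replicate 1 (fold 4.87) and 0.78 kb in replicate 2 (fold 4.81), at percentiles 10.1 and 21.7 by width. In both libraries this narrow peak had the highest H3K4me3 fold in the Gata2 window, above the peaks in the gene. H3K4me2 had folds of 4.97 and 3.99 there and H3K4me1 2.65, 2.20 and 1.99, and no H3K27ac was called.

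The Gata2 gene has 2 start sites, which lie 4773 bp apart in the RefSeq table. At the first, H3K4me2 was called from −0.41 to 0.93 kb and from −0.41 to 0.66 kb, with folds of 5.51 and 3.57. H3K4me3 was called there in replicate 2 alone (0.54 kb, fold 2.98, percentile 9.7), and H3K4me1 in replicates 1 and 3. Further in, H3K4me2 ran from 2.51 to 6.42 kb and from 2.87 to 6.02 kb, with folds of 5.14 and 3.68, and was the widest H3K4me2 peak at Gata2. H3K4me3 within it spanned 4.45 to 5.43 kb in replicate 1 (fold 2.95) and 2.86 to 6.00 kb in replicate 2 (fold 4.11). The H3K4me3 peaks of the gene thus stood below the middle of their lists by fold, at percentiles of 32.5 or less, and differed in extent between libraries. No ATAC peak of either library was called at either place.

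The +9.5 kb enhancer, a published intronic element that Gata2 needs in blood stem cells, had a weak ATAC peak in replicate 2 alone, from 9.24 to 9.44 kb (fold 4.13, percentile 17.1 by fold and 2.4 by width). H3K4me2 of both libraries, with folds of 4.02 and 3.12, and H3K4me1 of all 3 overlapped it. H3K4me3 was called there in replicate 2 alone, with a fold of 2.62 and a −log10 q of 1.56. Of 5 published Gata2 positions, at −77, −3.9, −2.8, −1.8 and +9.5 kb, ATAC replicate 1 had a peak within 0.5 kb of 2 and replicate 2 of 3, a mean of 2.5 ± 0.707 (SD, n = 2). H3K27ac met 1 in each library, the −77 kb enhancer. No share was computed for other positions, so these counts only describe the 5 named ones. No list had a peak over the −2.8 kb position itself. Within 0.5 kb of it lay only the downstream ends of peaks over the −4 kb site. These ended at −3.02 and −3.11 kb for H3K4me1 replicates 1 and 3, and at −3.01 and −3.14 kb for H3K4me2. No ATAC peak lay within 0.5 kb of −2.8 kb, and no peak of any list within 0.5 kb of −1.8 kb.

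**Figure D3:**
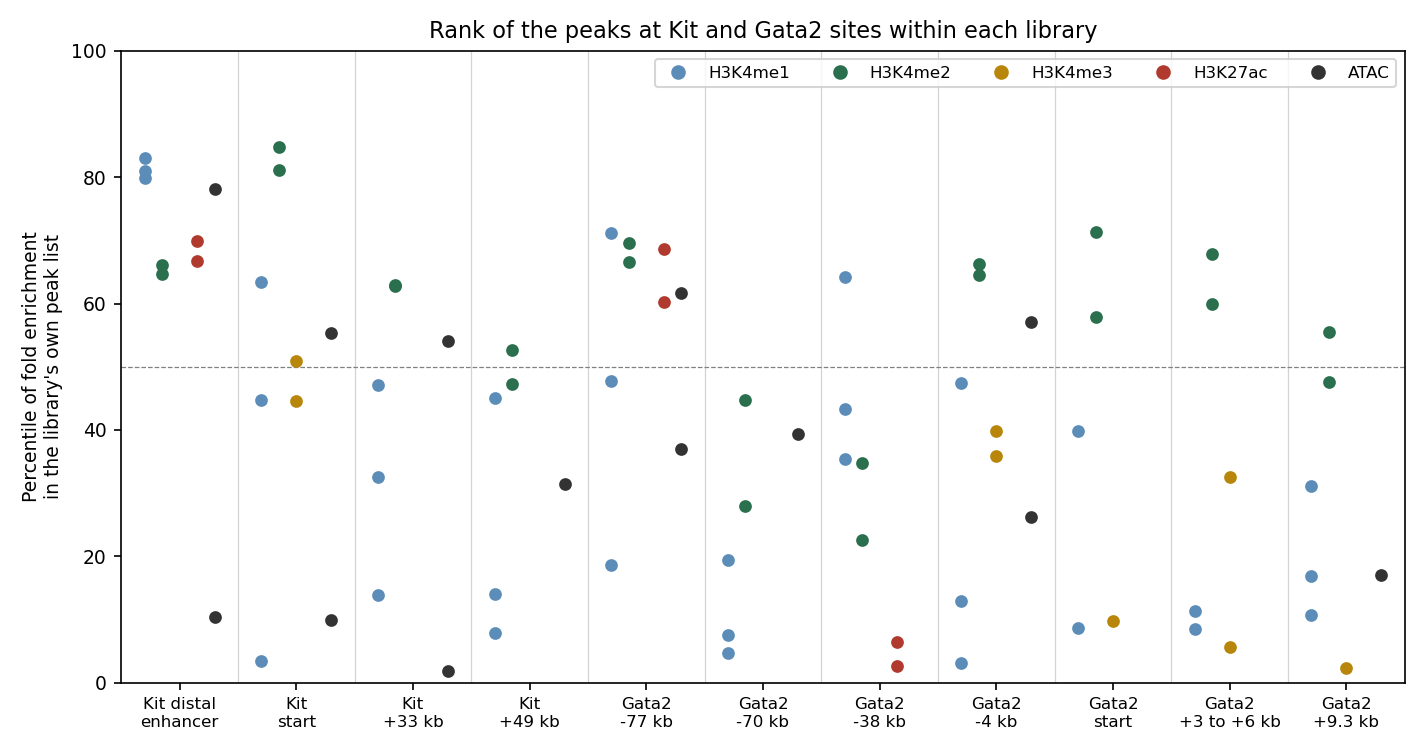
Percentile of fold enrichment within the library's own peak list (vertical axis, in percent of the list) for the peaks at 11 sites of Kit and Gata2, one point per library with a peak there. The dashed line marks the middle of each list. H3K27ac points stand above it at the Kit distal and Gata2 −77 kb enhancers and near the bottom at −38 kb, and the Kit start has the highest H3K4me2 points.

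Sites called in both ATAC libraries numbered 3 at Kit and 2 at Gata2. By marks present in every library of a mark, 2 of the 5 had H3K27ac and no H3K4me3 (the Kit distal and Gata2 −77 kb enhancers), 2 had H3K4me3 and no H3K27ac (the Kit start and the Gata2 −4 kb site) and 1 had H3K4me1 and H3K4me2 only (Kit near 33 kb). None had both H3K4me3 and H3K27ac, and 5 sites of 2 chosen genes are too few and too little independent for an interval. Over all 16271 such sites of the series 62.1% had both, 13.7% H3K27ac without H3K4me3, 13.6% H3K4me3 without H3K27ac and 6.82% H3K4me1 or H3K4me2 only. No test was made, since sites of a genome are not replicates. Without ATAC replicate 1 each window had 5 accessible sites, and a minimum −log10 q of 5 left 1 at Kit, the start, and 2 at Gata2.

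The ATAC lists differ in length, with 18441 peaks in replicate 1 and 28980 in replicate 2. All 3 Kit and all 3 Gata2 peaks of replicate 1 overlapped a peak of replicate 2, against 92.3% of all its peaks. Of the 5 Kit and 5 Gata2 peaks of replicate 2, 3 and 2 overlapped replicate 1, against 57.6% over its list. At the sites seen in both, the peaks of replicate 1 stood at percentiles 1.8 to 37.0 of its list by fold and those of replicate 2 at 54.1 to 78.1. Since the lists differ in length and most peaks of the shorter lie in the longer, these ranks are no comparison of the libraries.

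H3K4me3 and H3K27ac peaks of these genes were set against their lists in the same way. Each Kit H3K4me3 peak met an ATAC peak, as did 1 of 2 Gata2 peaks in replicate 1 and 2 of 4 in replicate 2, against 85.4% and 80.1% of the lists. None of the H3K27ac peaks met H3K4me3 (0 of 1 and 0 of 2 at Kit, 0 of 2 and 0 of 2 at Gata2), against 38.2% and 44.5%. Of the same peaks 1 of 1 and 1 of 2 at Kit and 1 of 2 and 1 of 2 at Gata2 met an ATAC peak, against 46.8% and 53.7%. Consensus H3K4me2 regions met one in 4 of 7 cases at Kit and 4 of 9 at Gata2, against 53.1%. These counts are small, and those of ATAC at H3K27ac and H3K4me2 lie near the shares of the lists.

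Both windows were richer in H3K4me1, H3K4me2 and H3K4me3 than the chromosomes at large. H3K27ac cover was lower at Kit in replicates 1 and 2 (0.8888% and 1.109% against 2.522% and 2.073%). At Gata2 it was lower in replicate 1 (2.371%) and higher in replicate 2 (2.235%). ATAC cover was higher by mean, but not at Kit in replicate 1 (0.361% against 0.378%). H3K4me1 peaks covered 15.5% ± 3.76 (SD, n = 3) of the Kit window and 14.1% ± 4.50 of the Gata2 window, against 4.26% ± 0.771 of the sequence spanned by peaks on all chromosomes. H3K4me2 covered 8.79% ± 0.538 (n = 2) and 12.6% ± 1.55, against 3.45% ± 0.195. H3K4me3 covered 2.05% ± 0.624 and 2.94% ± 2.27, against 1.15% ± 0.211. H3K27ac covered 0.999% ± 0.156 and 2.30% ± 0.0964, against 2.30% ± 0.317, and ATAC peaks 0.637% ± 0.390 and 1.46% ± 0.846, against 0.466% ± 0.125. Both windows hold a gene and were set to include enhancers, so these shares describe the windows and were not tested.

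H3K4me2 and H3K4me3 covered a larger share of the shorter Gata2 gene than of Kit. H3K4me2 covered 53.6% and 41.5% of the Gata2 gene and 16.1% and 16.5% of the Kit gene, without overlap. H3K4me1 covered 45.9%, 6.03% and 25.4% of the Gata2 gene and 31.7%, 22.6% and 25.1% of the Kit gene, which overlap. H3K4me3 covered 7.53% and 31.0% of the Gata2 gene and 3.70% and 5.77% of the Kit gene, without overlap. H3K27ac covered 0 of either gene in both libraries. By the limits used Kit is 82.0 kb long and Gata2 13.1 kb, and in bases the order turned. H3K4me2 covered 13.19 and 13.51 kb of the Kit gene and 7.018 and 5.431 kb of the Gata2 gene. H3K4me3 covered 3.032 and 4.735 kb of the Kit gene and 0.987 and 4.067 kb of the Gata2 gene, in replicates 1 and 2. Whether gene length accounts for the larger shares at Gata2 was not tested.

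**Figure D4:**
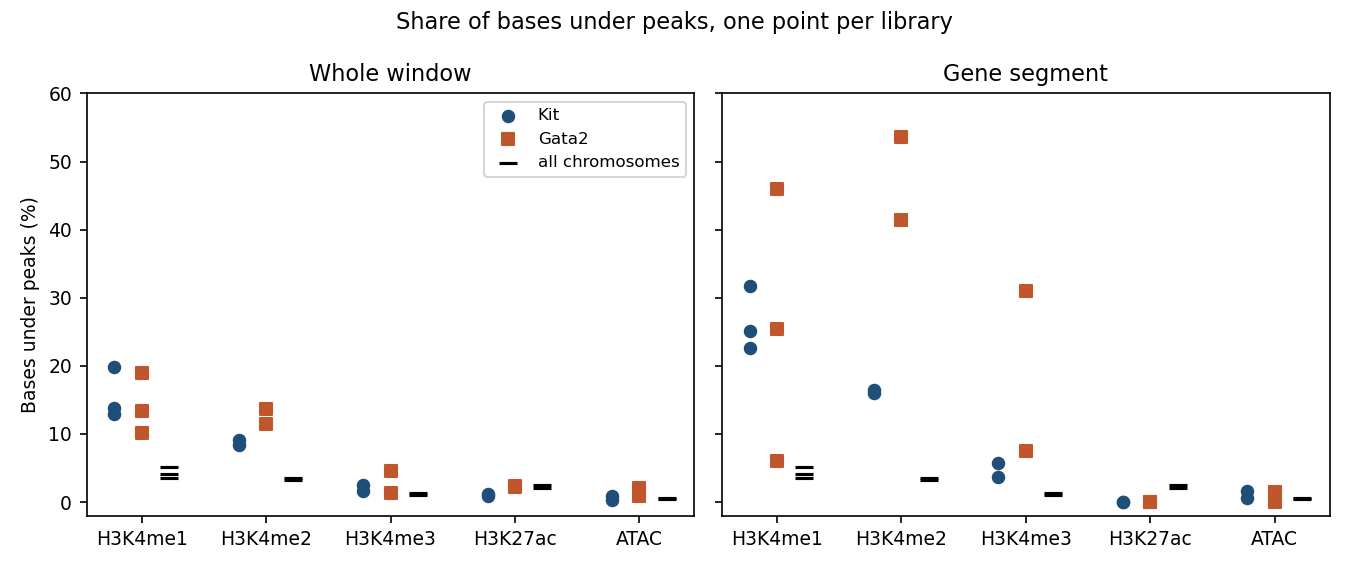
Share of bases under peaks in percent, for the whole windows and for the genes alone, one point per library, with circles for Kit, squares for Gata2 and dashes for all chromosomes. H3K4me1 and H3K4me2 points of both windows lie above the dashes, and H3K27ac is at 0 in both genes.

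Over the 9 ChIP libraries the difference in covered share between the windows was smaller than its spread. The share was 7.81% ± 6.79 at Kit and 8.68% ± 6.29 at Gata2 (SD, n = 9), a mean difference of −0.874 points ± 2.33, with Kit lower in 5 of 9 libraries. The libraries are of different marks, so these SDs include differences between marks, and opposite directions cancel in the mean. The windows differ in length, and their limits were set by position and are not biological units. The two-sided exact permutation test, which flips the sign of each library's difference, gave p = 0.3086, where 0.0039 is the smallest possible. Kit was higher in 3 of 3 H3K4me1 libraries, by 0.837, 2.85 and 0.458 points, and lower in both H3K4me2 libraries (−5.30 and −2.34) and both H3K27ac libraries (−1.48 and −1.13). When peaks of −log10 q under 5 were dropped, the difference was −1.76 points and p = 0.03125 in the same exact test. The direction for H3K4me1 then turned: Kit was lower in replicates 1 and 3, by −3.35 and −3.04 points, and replicate 2 had no peak left in either window.

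The 9 libraries may not be independent. Libraries of the same mark are repeats at the same windows, yet each was flipped as a separate unit. Flipping libraries of a mark together was not tested, so no p of these tests is read as a difference between the windows. Titles of H3K4me2 replicate 1, H3K4me3 replicate 2 and H3K27ac replicate 1 share a date-like tag whose meaning is not stated, and those of H3K4me2 replicate 2 and H3K4me3 replicate 1 share another. Kit was lower in all 3 libraries of the former tag, by −5.30, −2.05 and −1.48 points, and the latter gave −2.34 and 0.284. When libraries of 1 tag were flipped together, leaving 6 units, the exact permutation p was 0.625, where 0.03125 is the smallest possible. With the minimum −log10 q of 5 the same exact permutation test gave p = 0.0625. H3K4me1 replicate 2 then had a difference of 0, which a flip leaves unchanged, so 0.0625 was the smallest p possible.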

How the data were processed

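Peak lists of 11 libraries on mouse build mm9 were used. Per the submitters' processing notes, reads went through Trimmomatic 0.32, Bowtie 1.0.1, SAMtools and MACS2; caller settings, control and filters are not stated there or in the labels. Each deposited line holds the authors' fold enrichment (a ratio to background), their −log10 p and −log10 q, and a score made from the −log10 q and not used. Lists were made per library and hold no read counts, so depth is unknown and folds of different marks are not compared as levels; a short list may come from a shallow library. Replicates carry no label of separate embryos, so their spread may be technical.

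Python 3.11.15 with pandas 2.3.3 and SciPy 1.17.1 was used. Only the autosomes and sex chromosomes were used, which set 7 peaks aside. Positions count from 1. Peaks were clipped to the windows for covered shares, which are means ± SD over libraries. Percentiles rank a peak within its own list. Peaks overlapped from 1 bp, and a consensus site is a merged stretch holding a peak of every library. Interval code was tested on simulated intervals, where the check of merging looked for wrong stretches and not for missed ones. Promoter stretches are those of the RefSeq table, of which Kit and Gata2 both matched. Planned gene and marker lists were not used, since no mm9 annotation was given. The rule for named regions took every site in both ATAC libraries, peaks on the gene starts, the widest and highest peaks per library, and peaks near published enhancers; other sites described were chosen after their values were seen. The genes, windows and lists were chosen with earlier results of these data known. Alternatives were a −log10 q minimum of 5, lists of equal size, other overlap rules, a distance of 1 kb from published positions and leaving out each library.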

Additional observations from a re-analysis of the deposited data

How the results depend on the processing

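The counts of sites called in both ATAC libraries depended on the calls of the library with fewer peaks. They were 3 at Kit and 2 at Gata2, and under a minimum −log10 q of 5 they were 1 and 2. Counting sites of either library gave 5 and 5. Leaving out 1 ATAC library gave 3 to 5 sites at Kit and 3 to 5 at Gata2, the higher counts without replicate 1. The 3 at Gata2 without replicate 2 count the −77 kb enhancer as 2 peaks, so they hold no added site. At −log10 q of at least 5 the Kit distal enhancer and the 33 kb site lost their call in ATAC replicate 1, and H3K27ac replicate 1 lost the Kit distal enhancer. H3K4me1 then covered 2.50% of the Kit window, 4.63% of the Gata2 window and 0% of either gene, so that Kit went from higher to lower. The difference in cover between Kit and Gata2 became −1.76 points (exact permutation p = 0.03125, or 0.0625 with libraries of the same title tag flipped together, an alternative chosen after seeing the data). It was −0.943 with lists of equal size and ranged from −1.34 to −0.321 when 1 library was left out (nearest to 0 without H3K4me2 replicate 1), with no p under 0.05 (lowest 0.08594). Published Gata2 positions met by ATAC ranged from 2 to 3 per library and those met by H3K27ac stayed at 1. No accessible site in either window had both H3K4me3 and H3K27ac under any of these settings. The permutation test is paired, since it takes the difference between the Kit and Gata2 windows within each library. Across groups matched by replicate number, no paired analysis was possible because no test sets groups against each other. Unknown depth limits every statement that a peak was absent to peaks that the authors' caller would have called.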
